A study of Danio rerio with 12 samples.

Results

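In RNA-seq of adult zebrafish ventricular apices, 89 genes were set apart in all 4 nkx2.5-/- libraries from all 8 control libraries. Of 14317 genes with at least 2 CPM (the count of a gene times 1000000 over the total count of its library) in 4 or more of the 12 libraries, 38 genes (0.265%) lay at least 1 above the highest control library on the log2(CPM + 0.5) scale in every mutant library, and 51 genes (0.356%) lay at least 1 below the lowest control library. The raised genes include BMP antagonists and bmp4, a tropomyosin and a troponin I gene, and periostin a. The lowered genes include Z-disc and thin filament genes, a BMP10-type ligand, fgf3, and many provisional loci. The genes were chosen by these mutant and control CPM values, so the differences between them are given as a description, with no test.

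MT7 and MT0 are nkx2.5-/- fish, homozygous for the vu179 allele, that carry Tg(hsp70l:nkx2.5-EGFP), at 7 days post-amputation (dpa) of the ventricular apex and uninjured. TG7 and TG0 are wild-type fish with the same transgene, and WT7 and WT0 are non-transgenic wild-type fish. The hsp70l promoter of the transgene is active upon heat shock and drives an Nkx2.5-EGFP fusion. All fish were heat shocked as embryos at 37 °C at the stage of 21 somites, which rescues the mutants, and were 3 to 18 months old as adults. Each library pooled 6 apices and each group had 2 libraries. Pooling hides the spread between fish, and effects of the mutation, of line background and of the embryonic rescue cannot be told apart. Reads from a bulk apex also cannot tell fewer cells of a type from less RNA per cell.

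Total counts were between 14234818 and 24544150 per library. nkx2.5 itself was counted at 264 to 407 CPM in mutant libraries, against 174 to 238 CPM in TG and 193 to 255 CPM in WT libraries. Reads of the mutant allele and of the transgene can fall under the same name, so that this level does not check the genotype. The share of transgene reads was not tested. Cardiac muscle was present in every library, with myl7, the cardiac myosin light chain, at 10697 to 21039 CPM in mutant and 20262 to 33266 CPM in control libraries. Summed atrial markers (7 of 8 listed genes in the files, none at 0 in all libraries) ranged from 5919 to 12940 CPM in mutant and from 3620 to 5944 CPM in control libraries. Summed sarcomere genes ranged from 81863 to 143629 CPM in mutant and from 129449 to 188871 CPM in control libraries. Liver genes summed to 681 and 4539 CPM in the MT7 libraries, against 608 CPM or less in the other 10. Epicardial and fibroblast markers, postna among them, summed to 13428 to 15677 CPM in MT7 and 5234 to 10213 CPM in MT0. In controls they summed to 12576 to 13352 CPM in TG7, 3616 to 3617 CPM in TG0, 10582 to 12156 CPM in WT7 and 2790 to 2828 CPM in WT0. The uninjured mutant libraries thus lay above all uninjured control libraries in this sum. Leukocyte and red blood cell markers were also higher after injury than without it in all 3 genotypes. The part of these shifts in the results that follow was not tested.

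Nkx2.5 is a homeodomain transcription factor of cardiomyocytes that maintains ventricular identity. BMP ligands signal through receptor kinases and Smad proteins in the heart, and secreted antagonists such as noggin and follistatin bind the ligands outside the cell. In the sarcomere, tropomyosin and troponin regulate the thin filament, leiomodin controls its length, and LDB3 anchors alpha-actinin complexes at the Z-disc. Zebrafish often hold paralogs of such genes, and reads of near-identical copies can be split between them by the counting.

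The raised genes included secreted BMP pathway genes. The gene lists used here and below were written with earlier results of these data known. Shares of listed genes without overlap of mutant and control libraries rest on the CPM values of the rule. They are a description, with no test. Of 49 listed genes of BMP, TGF-beta and Wnt signalling past the CPM filter, 4 were raised (fsta, nog3, bmp4 and wnt11r) and none was lowered, and over the whole list all mutant libraries exceeded all controls for 10 genes (20.4%, beside 7.66% of all genes past the filter) and lay below them for 1 (2.04%, beside 2.84%). fsta, which encodes the activin and BMP binding protein follistatin, had the largest gap of the raised genes. It measured 42.9 and 31.9 CPM in MT7 and 10.1 and 71.3 CPM in MT0, against 0.116 to 0.538 CPM (median 0.361) in the 8 control libraries. Taken as summed counts over summed library totals, the mutant level was 106 times that of the controls, although the MT0 libraries differed widely from each other. The ratios between mutant and control libraries below were computed the same way.

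nog3, a noggin that binds BMP ligands, was lower than fsta in its counts but more even, at 7.88 and 7.28 CPM in MT7 and 5.42 and 5.93 CPM in MT0, against 0.486 to 2.07 CPM (median 0.758) in controls. nbl1, a DAN family BMP antagonist, measured 25.6 and 31.7 CPM in MT7 and 36.701 and 19.4 CPM in MT0, against 1.68 to 7.83 CPM (median 2.89) in controls. The highest control value of nog3 belonged to TG0 and that of nbl1 to TG7. Paralogs of fsta and nog3 overlapped between genotypes. fstb measured 3.83 to 10.97 CPM in mutant and 1.68 to 9.26 CPM in control libraries, and nog2 1.23 to 3.67 and 0.174 to 2.16 CPM. The ligand bmp4 measured 17.0 and 15.6 CPM in MT7 and 13.7 and 20.05 CPM in MT0. In controls bmp4 measured 5.02 and 6.15 CPM in TG7, 1.198 and 1.89 CPM in TG0, 2.38 and 3.09 CPM in WT7, and 0.927 and 0.703 CPM in WT0, so that the injured controls came closest to the mutants.

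wnt11r, a ligand of non-canonical Wnt signalling that current annotation names wnt11, had the smallest ratio of the raised genes, 3.25-fold, with little spread in either group (63.0 to 84.0 CPM in mutant libraries, against 19.6 to 25.5 CPM in controls). One ligand locus, which the list of BMP, TGF-beta and Wnt genes does not hold, went the other way. LOC571601, which RefSeq names bmp10l, a gene of the BMP10 type, measured 23.6 and 6.96 CPM in MT7 and 8.18 and 9.06 CPM in MT0. It measured 94.3 and 121 CPM in TG7, 145 and 135 CPM in TG0, 199 and 159 CPM in WT7, and 332 and 328 CPM in WT0. Its transgenic libraries thus lay between the mutant and the wild-type ones without overlap.

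**Figure D1:**
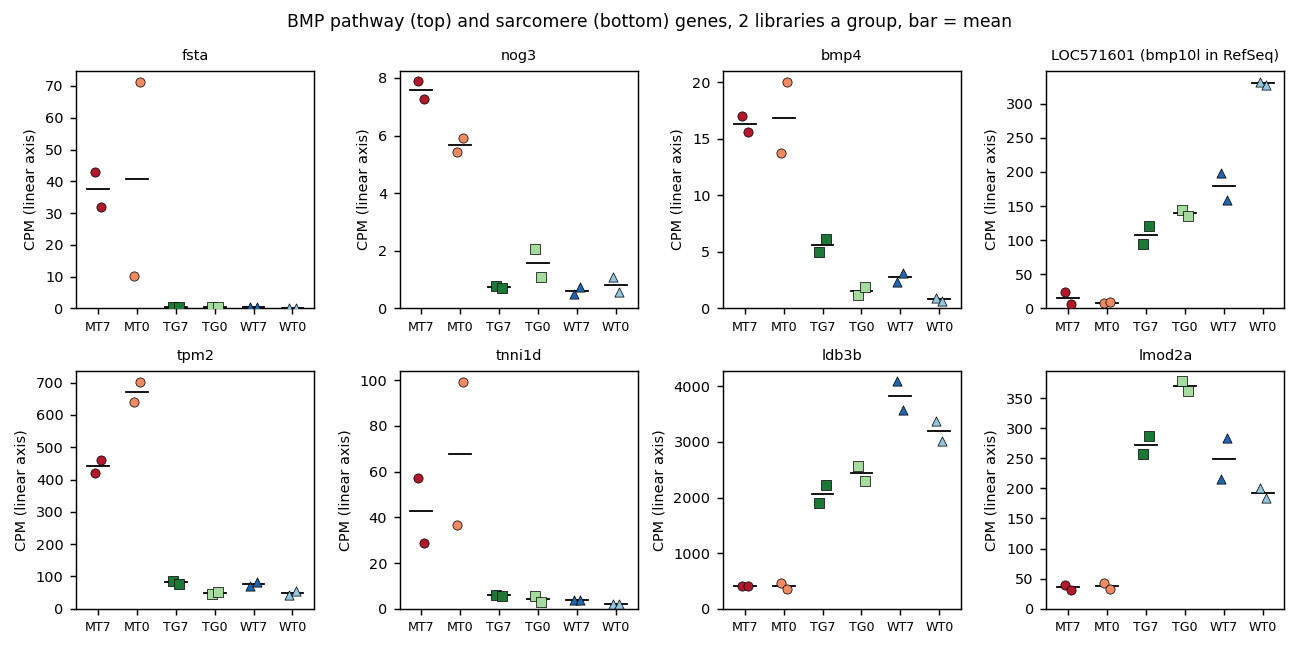
CPM (vertical axis, linear from 0) of 4 BMP pathway genes (top) and 4 sarcomere genes (bottom) in the 6 groups along the horizontal axis, with 1 point for each of 2 libraries and a bar at their mean. fsta, nog3, bmp4, tpm2 and tnni1d are higher in all 4 mutant libraries, and LOC571601, ldb3b and lmod2a lower, than in any of the 8 control libraries.

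Other secreted factors were among the lowered genes. fgf3, a fibroblast growth factor ligand, measured 1.33 and 2.21 CPM in MT7 and 0.409 and 0.964 CPM in MT0, against 14.3 to 23.5 CPM (median 17.0) in controls. fgf7, an FGF ligand of mesenchymal cells in mammals, measured 0.0511 to 0.337 CPM in mutant libraries, against 1.39 to 13.5 CPM in controls, where TG0 was highest with 13.5 and 10.7 CPM. csf3, a granulocyte colony stimulating factor, ranged from 0.320 to 1.205 CPM in mutant libraries, against 4.08 to 14.9 CPM in controls, with WT0 highest. kazald3 (Kazal-type domains), tg (thyroglobulin) and LOC100333394 (zpld1b in RefSeq) were lowered as well, with ratios of controls to mutants of 5.24, 6.08 and 10.3. For tg the TG7 libraries differed from each other, at 29.5 and 8.56 CPM.

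Sarcomere genes went in both directions. Of 66 listed sarcomere and Z-disc genes past the filter, 2 were raised (tpm2 and tnni1d) and 2 lowered (ldb3b and lmod2a), and all mutant libraries exceeded all controls for 4 genes (actc1b, tnni1d, tpm2 and tpm3) and lay below them for 9 (ldb3b, lmod2a, myom1b, smpx, smyd1b, synpo2lb, tnnc1a, tnni1c and vmhcl), which is 6.06% and 13.6% of the list, beside 7.66% and 2.84% of all genes. tpm2, a tropomyosin, measured 421 and 461 CPM in MT7 and 639 and 703 CPM in MT0, against 44.0 to 85.8 CPM (median 62.4) in controls, 8.55 times higher in mutant libraries by summed counts. It was the most abundant of the raised genes in mutant libraries. tnni1d, a troponin I gene, measured 57.2 and 28.7 CPM in MT7 and 36.5 and 99.1 CPM in MT0, against 1.90 to 5.98 CPM (median 3.72) in controls.

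ldb3b, the Z-disc gene with the highest counts among all 89, measured 403 and 412 CPM in MT7 and 457 and 355 CPM in MT0, against 1907 to 4090 CPM (median 2796) in controls. Within the controls the TG libraries (1907 to 2570 CPM) lay below the WT libraries (3021 to 4090 CPM). lmod2a, a leiomodin, measured 39.3 and 31.4 CPM in MT7 and 43.2 and 33.3 CPM in MT0, against 184 to 378 CPM (median 271) in controls. The paralogs of both overlapped between genotypes, with ldb3a at 216 to 446 CPM in mutant and 243 to 557 CPM in control libraries, and lmod2b at 523 to 937 CPM in mutant and 627 to 901 CPM in control libraries. The lysine methyltransferases smyd2a and smyd2b were lowered together, smyd2a to 32.8 to 45.0 CPM in mutant libraries, against 101 to 129.6 CPM in controls, and smyd2b to 9.64 to 14.6 CPM, against 32.0 to 65.1 CPM. Both gaps were near 1 on the log2 scale (1.16 and 1.104).

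Matrix and surface genes followed. postna, a periostin of the extracellular matrix, measured 221 and 222 CPM in MT7 and 146 and 222 CPM in MT0. It measured 70.0 and 67.3 CPM in TG7, 18.4 and 51.3 CPM in TG0, 66.0 and 63.7 CPM in WT7, and 6.43 and 11.4 CPM in WT0. That the uninjured mutants exceeded even the injured controls follows from the rule, for postna as for every raised gene. Mutant and control libraries of the paralog postnb overlapped. postnb measured 1321 and 1089 CPM in MT7, 1643 and 1706 CPM in TG7, and 1039 and 1365 CPM in WT7. Without injury it measured 88.8 and 170 CPM in MT0, 54.5 and 53.9 CPM in TG0, and 7.65 and 12.1 CPM in WT0. postna was the 1 raised gene of 95 listed matrix genes past the filter, and none was lowered. Over that list all mutant libraries exceeded all controls for 7 genes (7.37%, beside 7.66%) and lay below them for none (beside 2.84%).

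frem2b, a basement membrane protein of the Fraser complex, measured 199 and 137 CPM in MT7 and 141 and 235 CPM in MT0, against 11.3 to 53.8 CPM (median 33.7) in controls. bcam, a laminin-binding surface protein, was 4.28 times higher in mutant libraries, and hs3st3b1b, an enzyme that sulfates heparan sulfate, 13.9 times. Among the lowered genes, cd248a, a surface glycoprotein of stromal cells in mammals, measured 77.3 and 81.5 CPM in MT7 and 111 and 115 CPM in MT0, against 257 to 446 CPM (median 313) in controls.

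Transcription regulators were found on both sides, although none of the 38 listed cardiac transcription factors past the filter was in either set. Over that list all mutant libraries exceeded all controls for 7 genes (gata5, irx3a, klf2a, klf2b, mef2cb, meis1b and nkx2.5, 18.4%, beside 7.66% of all genes) and lay below them for 1 (tbx5b, 2.63%, beside 2.84%). pou3f1, a POU domain factor known from neural and glial cells, measured 15.7 and 6.92 CPM in MT7 and 6.34 and 10.02 CPM in MT0, against 0 to 0.418 CPM in controls, with 3 of the 4 WT libraries at 0 counts. tox, an HMG box factor, measured 94.5 and 178 CPM in MT7 and 156 and 163 CPM in MT0. Its level was 16.1 to 19.0 CPM in TG libraries and 2.09 to 7.57 CPM in WT libraries, and these 2 genotypes did not overlap.

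tbr1a, a T-box factor, measured 14.01 to 24.7 CPM in mutant libraries, against 0.281 to 4.004 CPM in controls. lmcd1, a LIM domain cofactor, measured 70.29 and 69.7 CPM in MT7 and 46.6 and 39.8 CPM in MT0, against 8.85 to 19.2 CPM in controls. In the other direction, nr2f6b, an orphan nuclear receptor, measured 12.7 to 19.0 CPM in mutant libraries, against 42.9 to 74.6 CPM in controls. LOC100536981, named baz2bb in RefSeq, a bromodomain gene, fell to 1.60 and 0.231 CPM in MT7 and 0.256 and 0.0482 CPM in MT0, against 15.8 to 26.7 CPM in controls.

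Further members are described by their roles, which were looked up after their values were seen. rims1a, a scaffold of presynaptic release sites, measured 72.1 and 105 CPM in MT7 and 193 and 182 CPM in MT0, against 3.49 to 20.6 CPM in TG libraries and 0.232 to 2.82 CPM in WT libraries. gria4b, an AMPA receptor subunit, was 3.43 times higher in mutant libraries, and dtnbp1b (dysbindin) and sntg2 (a syntrophin) were 8.91 and 14.9 times higher. adra2b, an adrenergic receptor that lowers cyclic AMP, measured 0.533 and 0.277 CPM in MT7 and 1.53 and 1.40 CPM in MT0, against 10.3 to 19.0 CPM (median 11.8) in controls. hrh3, a histamine receptor, ranged from 0 to 0.626 CPM in mutant libraries, against 2.44 to 19.1 CPM in controls, with WT0 highest, and grin2b (an NMDA receptor subunit) and ctnnd2b (delta-catenin) were also lowered.

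atp1a3b, a catalytic subunit of the sodium pump, was the 1 member of 38 listed calcium handling and ion channel genes past the filter. Of these 38, all mutant libraries exceeded all controls for 5 (asph, atp1a2a, cx43, kcne4 and scn1ba, 13.2%, beside 7.66%). They lay below them for 4 (atp1a3b, atp1b1b, gja3 and kcnj11, 10.5%, beside 2.84%). atp1a3b measured 107 and 150.3 CPM in MT7 and 264 and 173 CPM in MT0, against 894 to 2006 CPM (median 1620) in controls. The lowest control values were those of TG7, 894 and 1102 CPM. The catalytic subunit atp1a2a is among the 5 genes with mutants above controls. Another, atp1a1a.1, overlapped at 1377 to 2347 CPM in mutant and 965 to 1510 CPM in control libraries.

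Several intracellular signalling genes were raised. mapkapk3, a kinase downstream of p38, measured 163 and 177 CPM in MT7 and 211 and 224 CPM in MT0, against 27.1 to 46.803 CPM (median 37.9) in controls. rasl11b, a small Ras-like GTPase, measured 102 and 92.3 CPM in MT7 and 255 and 264 CPM in MT0, against 12.3 to 30.6 CPM (median 21.4) in controls. LOC100333821, named tnfrsf11a in RefSeq, the receptor of RANK ligand, measured 96.1 and 107 CPM in MT7 and 133 and 105 CPM in MT0, against 28.7 to 35.9 CPM in injured and 7.59 to 12.6 CPM in uninjured controls. The MT7 and MT0 libraries of rasl11b did not overlap, and those of LOC100333821 did.

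ywhaqa (a 14-3-3 protein), gnai2b (an inhibitory G protein subunit), adcy2a (an adenylyl cyclase), tank (a TRAF binding adaptor) and rab11fip4b (a Rab11 effector) were raised by 3.41, 3.73, 8.85, 3.78 and 3.42 times. The remaining raised genes were oxct1a, the mitochondrial enzyme that opens ketone body use (10.4 times), ankrd24 (30.4 times), myo10l1 (4.96 times), kansl1l, cuedc1b, fam46bb (tent5bb in RefSeq), zgc:165653, si:ch211-137i24.12, si:ch73-196i15.5, and the loci LOC103909634 and LOC103911176, which RefSeq lists as long non-coding RNAs. Antisense and overlapping transcripts cannot be told apart by this unstranded library kit.

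**Figure D2:**
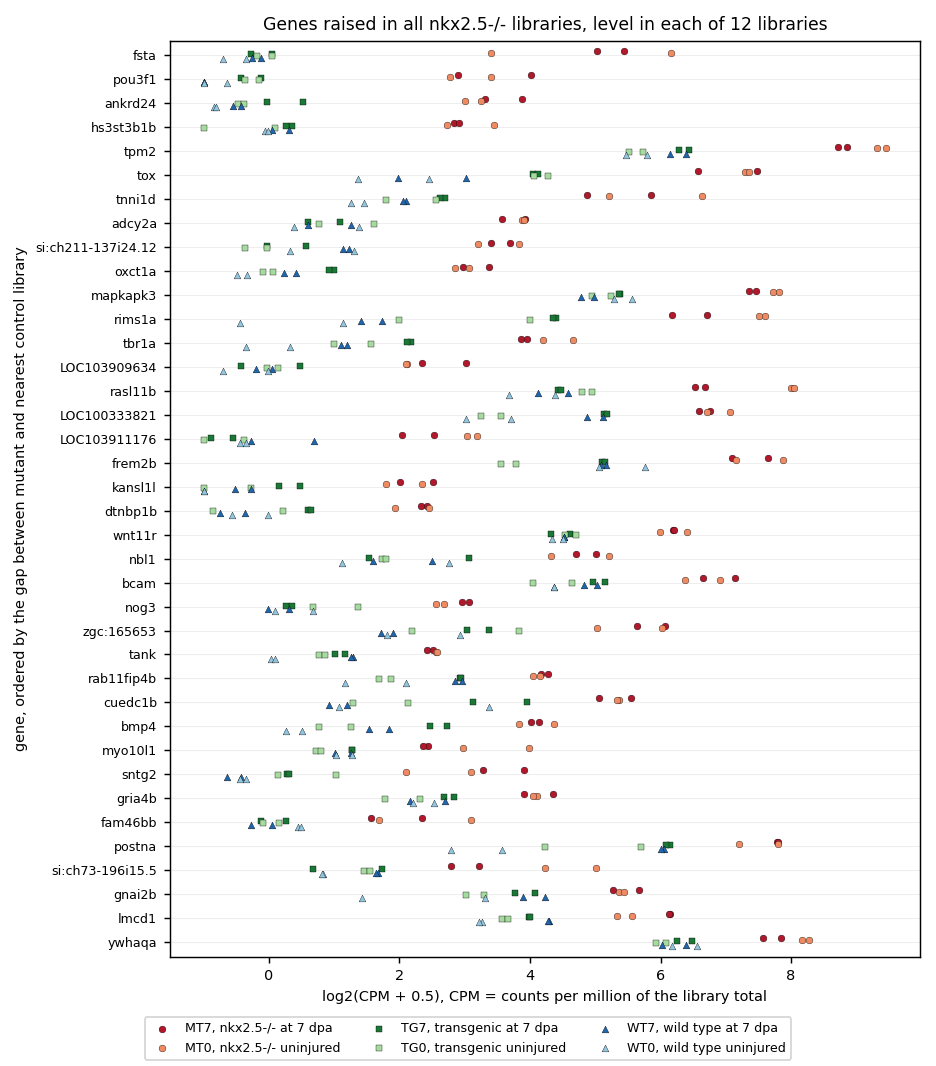
Level of the 38 raised genes (rows, ordered by gap) as log2(CPM + 0.5) on the horizontal axis, with 1 point for each of 12 libraries. All 4 mutant points (circles) of every gene lie at least 1 to the right of the rightmost control point (squares and triangles), from a gap of 3.36 for fsta to 1.01 for ywhaqa.

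Several metabolic and transport genes were among the lowered ones. g6pcb, a glucose-6-phosphatase gene named g6pc1b in RefSeq, measured 2.45 and 2.54 CPM in MT7 and 3.58 and 3.71 CPM in MT0, against 42.3 to 69.0 CPM (median 62.4) in controls, a ratio of 19.1. hhatla, related to hedgehog acyltransferase, measured 5.06 to 8.89 CPM in mutant libraries, against 39.6 to 75.5 CPM in controls. sult2st1, a sulfotransferase, measured 2.29 to 5.07 CPM in mutant libraries, 47.2 to 74.6 CPM in TG libraries and 13.6 to 28.4 CPM in WT libraries, and was the only lowered gene whose TG libraries lay beyond the WT libraries on the side away from the mutants. fitm1-2 (lipid droplets), zgc:92113 (slc25a55b in RefSeq, a mitochondrial carrier), zdhhc2 (a palmitoyltransferase), grb14 (an adaptor of the insulin receptor) and LOC796753 (s100p in RefSeq) were lowered with ratios between 3.64 and 6.31. Of 82 listed energy metabolism genes past the filter, none was in either set, while all mutant libraries exceeded all controls for 5 (6.1%, beside 7.66%) and lay below them for 9 (11%, beside 2.84%).

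smim1, whose human counterpart carries the Vel blood group of red cells, had 0 counts in all 4 mutant libraries and 4.36 to 22.3 CPM in controls. Against a floor of 3 counts over the mutant group, its level was at least 337-fold lower in mutant libraries. Summed red blood cell markers of the same libraries were 2152 to 7728 CPM in mutant and 1353 to 10519 CPM in control libraries and overlapped. LOC103909264 also had 0 counts in all mutant libraries, against 2.57 to 10.3 CPM in controls, which is at least 146-fold lower. zgc:158423 had 2 counts over the mutant libraries, and the ratio of controls to mutants of 67.8 had a 95% exact Poisson interval of 18.8 to 559.8, which covers counting error only.

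The locus with the largest gap of all, LOC100535760, measured 1.33 and 0.461 CPM in MT7 and 1.02 and 0.530 CPM in MT0, against 25.9 to 61.5 CPM (median 48.3) in controls. The lowered set held 26 provisional names of 51 (51.0%), beside 6 of 38 (15.8%) in the raised set and 23.7% of all genes past the filter. Beside those named above, it comprised the loci LOC100332907, LOC101885994, LOC100537027, LOC103911409, LOC103910477, LOC101886706 (a long non-coding RNA in RefSeq), LOC100331359, LOC100330395 (cracr2aa in RefSeq), LOC101883310, LOC100334841, LOC103910188 and LOC101884293 (gpr137bb in RefSeq), the genes sla and nhsl1a, and zgc:113276, zgc:63972, si:ch211-28p3.4, si:ch211-26b3.4, si:ch211-171h4.3 and si:dkey-91i10.2 (arhgef49 in RefSeq). Of these, nhsl1a had the highest counts, with 76.1 to 123 CPM in mutant libraries, against 266 to 520.1 CPM in controls. Over all 51 genes, 38 averaged under 10 CPM in mutant libraries and 8 averaged over 100 CPM in controls. Of the 38 raised genes, 26 averaged under 10 CPM in controls and 10 averaged over 100 CPM in mutant libraries.

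**Figure D3:**
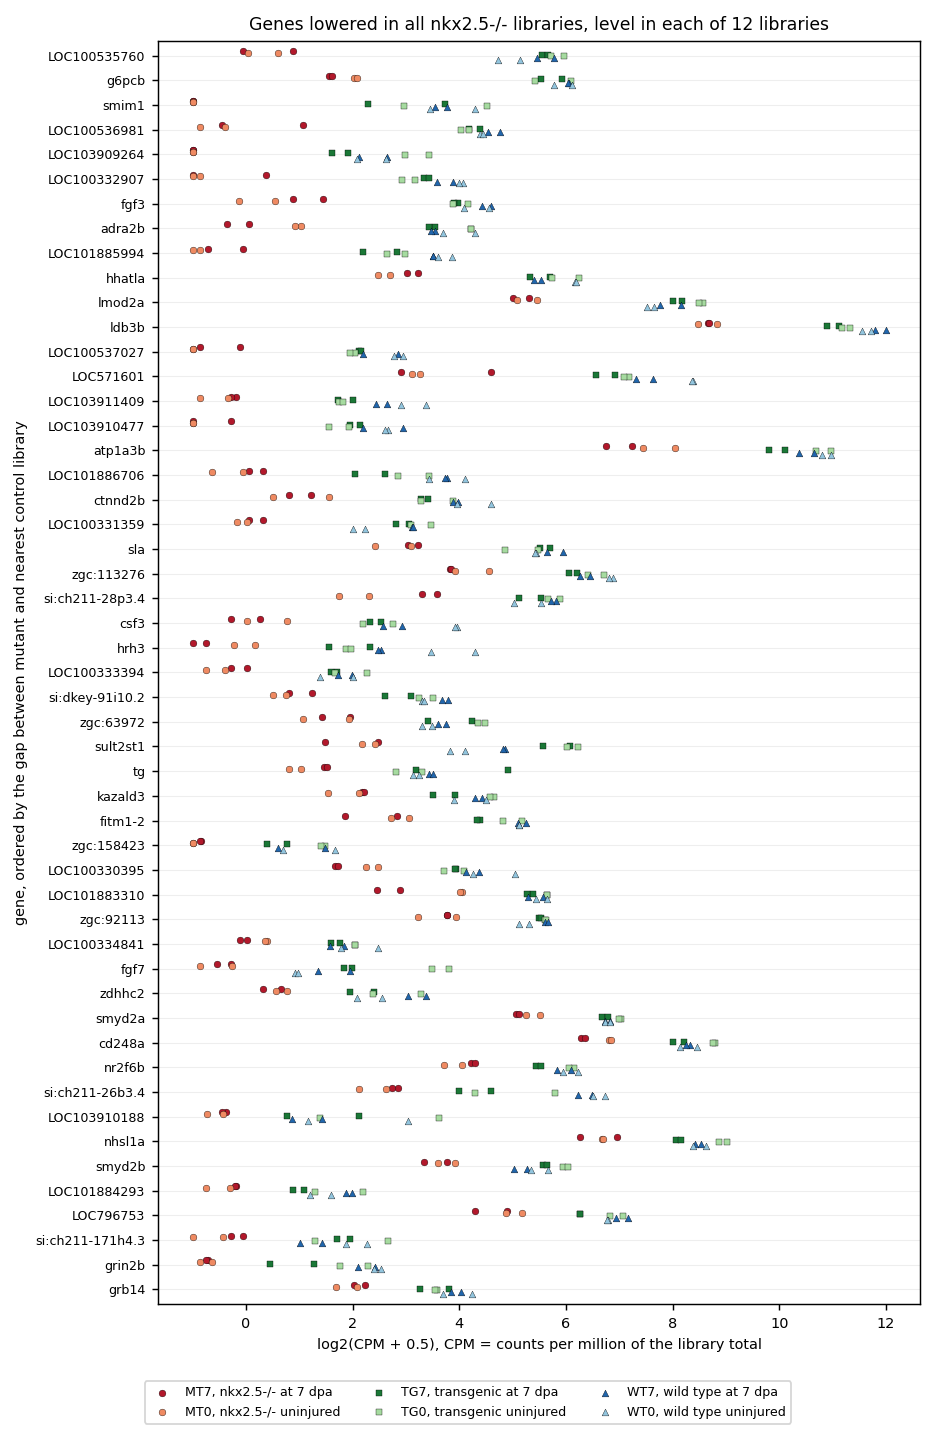
Level of the 51 lowered genes (rows, ordered by gap) as log2(CPM + 0.5) on the horizontal axis, with 1 point for each of 12 libraries. All 4 mutant points (circles) of every gene lie at least 1 to the left of the leftmost control point (squares and triangles), from a gap of 3.85 for LOC100535760 to 1.03 for grb14, and 0 counts plot at -1.

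The margin of 1 divided a continuous range. Just inside it were ywhaqa (gap 1.01), lmcd1 (1.03) and gnai2b (1.04) among raised genes and grb14 (1.03), grin2b (1.07) and si:ch211-171h4.3 (1.07) among lowered ones. Just outside were aste1 (0.99), LOC562072 (0.97) and LOC555247 (0.96), and LOC569146 (0.998), st8sia6 (0.98) and avpr1b (0.97). Injured libraries set most of the margins: among the controls, TG7 replicate 1 was the nearest library for 16 of 38 raised genes, and the 2 TG7 libraries for 28 of 51 lowered genes. With library sizes scaled by TMM (edgeR's correction for composition) in place of totals, 28 genes were raised, of which 25 were among the 38, and 61 were lowered, of which 48 were among the 51. Leaving out any 1 mutant library kept 24 of the 38 raised genes, since 14 reach 2 CPM in the mutant libraries alone, and 26 to 46 genes then passed.

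The genes chosen in 1 injury state were tested in the other. The sets chosen this way are not the 89 genes, whose choice used all 12 libraries, so this is no test of the 89. It asks whether genes separated in 1 state are also separated in libraries that had no part in their choice. Line background and embryonic rescue are the same in both states, so a repeat does not tell them from the mutation. The margin was the same, but the filter asked for at least 2 CPM in 2 or more of the 6 libraries of that state. This way 161 genes were lowered in MT0 against WT0 and TG0, of which 91 of 159 tested (57.2%) were called lower in both MT7 vs WT7 and MT7 vs TG7 (edgeR quasi-likelihood test on the 6 injured libraries, FDR below 0.05 and absolute log2 fold change above 0.5), beside 2.64% of all 18562 genes. Of 397 genes raised in MT0, 79 of 396 tested (19.9%) were called higher in both, beside 1.39%. In the reverse direction, 57 of 137 genes raised in MT7 (41.6%, beside 3.53% of 17435) and 78 of 130 lowered in MT7 (60.0%, beside 2.43%) were called in both MT0 vs WT0 and MT0 vs TG0, and none of the 4 groups of genes held a call in the opposite direction against both controls. Both contrasts of each pair share their mutant libraries. Raised genes can pass this filter through the 2 mutant libraries alone. The genes behind the shares of all genes were not chosen this way, so these shares are not a like background for the chosen genes. The counts from injured libraries fell to 8 and 9 lowered and 1 and 1 raised genes without TG7 replicate 1 or 2, and to 33 and 34 lowered and 21 and 22 raised genes without WT7 replicate 1 or 2. The counts from uninjured libraries fell to 45, 41 and 37 lowered and 21, 19 and 18 raised genes without MT0 replicate 2, TG0 replicate 1 or TG0 replicate 2.

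In the mutant heart, the raised genes were called in the injury contrast at about the share of all genes, in 1 direction. Of 38, none was called higher and 6 were called lower in MT7 vs MT0 (15.8%), beside 5.56% higher and 6.48% lower, or 12% in either direction, of all 19014 genes tested (edgeR quasi-likelihood test on all 12 libraries, FDR below 0.05 and absolute log2 fold change above 0.5). At an unadjusted p below 0.05 there were 10 genes in either direction, beside 5743 of all 19014 genes. DESeq2 called 7, and its share of all genes was not computed. rasl11b fell by 1.72 on the log2 scale (SE 0.19, FDR = 0.0016), tpm2 by 0.90 (SE 0.14, FDR = 0.0053) and si:ch73-196i15.5 by 2.04 (SE 0.41, FDR = 0.013). The first 2 calls held without any 1 library, while that of si:ch73-196i15.5 was lost without MT0 replicate 1 or MT7 replicate 1 (FDR up to 0.13). myo10l1 (-1.52), ywhaqa (-0.80) and mapkapk3 (-0.65) completed the 6. The 38 include genes, myo10l1 among them, that reach 2 CPM in mutant libraries alone. The genes behind the shares of all genes were not chosen this way.

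The median log2 fold change of the 38 in MT7 vs MT0 was -0.32, with 32 negative, against 0.00 for all genes. Library totals in place of TMM moved the median of all genes to 0.30 in this contrast, to 0.19 between WT7 and WT0 and to 0.21 between TG7 and TG0. Under that scaling the raised genes had a median of -0.03 in MT7 vs MT0, 1 was called higher and 4 lower. In a fit of only the 4 MT7 and MT0 libraries 1 of the raised genes was called, and without MT7 replicate 1 in the full fit 2 were called.

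In control hearts most calls were upward. Genes that reach 2 CPM in mutant libraries alone, such as tank, are counted here too. Of the 38, 9 were called higher and 1 lower in WT7 vs WT0 (beside 13.2% and 11% of all genes), with a median of 0.41, and 5 higher and 0 lower in TG7 vs TG0 (beside 6.69% and 2.68%), with a median of 0.48. Among the genes called, postna rose most in wild type (log2 fold change 2.697, SE 0.42, FDR = 0.0021), followed by tank (1.63, SE 0.31, FDR = 0.0054), and lmcd1 rose by 0.89 (SE 0.17, FDR = 0.0056). These 3 calls held without any 1 library. bmp4 rose in both controls, by 1.53 in WT7 vs WT0 (SE 0.32, FDR = 0.0083) and by 1.63 in TG7 vs TG0 (SE 0.28, FDR = 0.0071), and LOC100333821 by 1.43 (SE 0.28, FDR = 0.0066) and 1.59 (SE 0.28, FDR = 0.0082). The bmp4 calls were lost without WT7 replicate 2 (FDR = 0.066), and without TG0 replicate 1 or TG7 replicate 2 (FDR up to 0.070).

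oxct1a and rab11fip4b were also called higher in both controls, tbr1a and gnai2b in WT7 and frem2b in TG7 (with gnai2b lost without any of 11 libraries, FDR up to 0.22, and tbr1a without any of 3, FDR up to 0.12), and mapkapk3 was called lower in WT7 (-0.75). Without WT0 replicate 1, WT7 replicate 1 or WT7 replicate 2 the 10 wild-type calls fell to 6, 5 and 3. The 5 transgenic calls became 1 without TG0 replicate 1 or TG7 replicate 1, 3 without TG0 replicate 2, 0 without TG7 replicate 2, and 8 without either WT0 library. The TG7 vs TG0 count of 0 lower genes stood beside 12 raised genes with an unadjusted p below 0.05 in either direction. DESeq2 called 8, and its share of all genes was not computed. Of all 19014 genes, 5244 had an unadjusted p below 0.05 in this contrast.

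Epicardial and fibroblast markers, the list that holds postna, rose with injury in all genotypes. Of 18 markers, 12 were called higher by MT7 vs MT0 (66.7%, beside 5.56% of all genes). WT7 vs WT0 called 15 (83.3%, beside 13.2%) and TG7 vs TG0 also 15 (83.3%, beside 6.69%). Their share in the values of postna was not tested.

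Whether the mutant responded to injury otherwise than each control was tested with an interaction term. In (MT7 - MT0) - (WT7 - WT0), 8 of 38 raised genes (21.1%) were called lower and none higher, beside 1.51% and 0.463% of all genes, and the median was -0.88, against -0.04 for all genes. In (MT7 - MT0) - (TG7 - TG0), 3 were called lower and none higher, beside 1.06% and 0.347%, with a median of -0.91, against -0.06 for all genes. Raised genes that reach 2 CPM in mutant libraries alone, tank among them, count in both tests. The rule used the same values and placed MT0 above the injured as well as the uninjured controls. A raised gene that rises with injury in controls is thus inclined to a negative difference by its choice. The genes behind the shares of all genes were not chosen this way, so these shares are not a like background. Unadjusted p-values below 0.05 were found for 16 and 15 of the raised genes, beside 3677 and 2894 of all 19014 genes tested. DESeq2 called 9 and 9, with no share of all genes computed. Of the 18 epicardial and fibroblast markers, 7 and 3 were also called lower in these 2 tests. tpm2, LOC100333821 and bmp4 were called against both controls, and the remaining 5, rasl11b, tank, postna, tbr1a and si:ch73-196i15.5, against wild type only. Of these 5, rasl11b, tank, postna and tbr1a were also called higher in TG0 vs WT0 (beside 11.1% of all genes). Their log2 fold changes there were 0.86, 1.23, 2.02 and 1.87, and each call was lost without 1 to 3 libraries. si:ch73-196i15.5 was not called there (0.89, FDR = 0.21). WT0 enters the difference against wild type, and the part of this line difference in it was not tested. For tpm2 the difference was -1.35 (SE 0.21, FDR = 0.015) against wild type and -1.42 (SE 0.21, FDR = 0.016) against transgenic hearts, as it fell in MT7, while its log2 fold changes in WT7 (0.45, FDR = 0.046) and TG7 (0.52, FDR = 0.051) missed the threshold of size or of FDR. For bmp4 the differences were -1.86 (SE 0.40, FDR = 0.049) and -1.97 (SE 0.37, FDR = 0.036), with a level in MT7 that overlapped that in MT0.

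**Figure D4:**
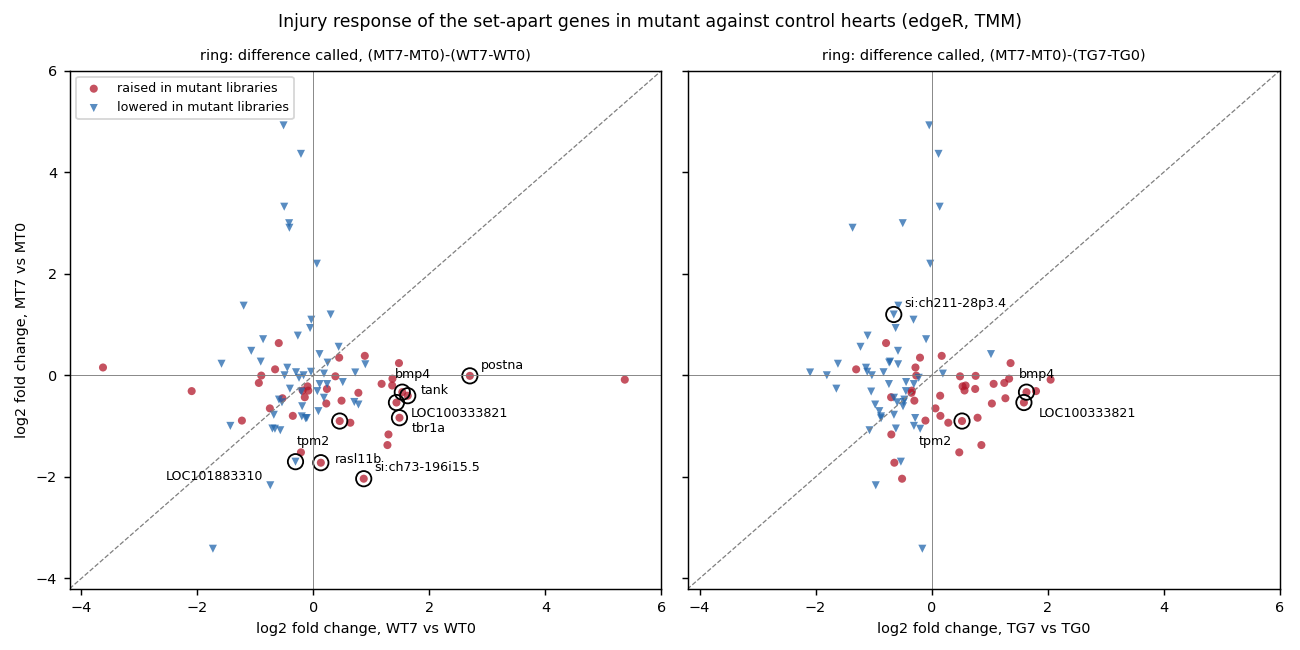
Log2 fold change of MT7 vs MT0 (vertical axis) against that of WT7 vs WT0 (left) and of TG7 vs TG0 (right) for the genes raised (circles) and lowered (triangles) in mutant libraries, with a dashed line where both are equal. Rings mark genes whose difference was called, 9 in the left and 4 in the right panel, and the ringed raised genes all lie below the line.

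These interaction calls were close to the threshold. The 8 calls against wild type became 0 without WT7 replicate 2, 1 without WT7 replicate 1, 2 to 4 without any other library but WT0 replicate 2, and 3 with library totals in place of TMM or with the replicate number as a block. The 3 calls against transgenic hearts became 0 without MT7 replicate 1, TG0 replicate 1 or either TG7 library, 1 without TG0 replicate 2 or either WT7 library, and 7 without either WT0 library. rasl11b and tpm2 held best against wild type, with calls lost without 1 and 3 libraries (FDR up to 0.076 and 0.10), while each of the other 6 was lost without 9 or more.

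Those lowered genes that were called with injury were called lower, with 2 exceptions. The set was chosen to be low in MT7 and MT0, and smim1 and LOC103909264 had 0 counts in all 4 mutant libraries. A call in MT7 vs MT0 was thus impossible for these 2 and hard for others near the floor, yet all 51 are counted. In MT7 vs MT0, 6 of 51 were called lower and 1 higher (beside 6.48% and 5.56%), and in WT7 vs WT0 4 lower and 1 higher (beside 11% and 13.2%). In TG7 vs TG0, 10 were called lower and 0 higher (beside 2.68% and 6.69%). There 26 had an unadjusted p below 0.05, beside 5244 of all 19014 genes. DESeq2 called 16, and its share of all genes was not computed. adra2b was called lower in all 3, by 2.17 (SE 0.38, FDR = 0.0073) in MT7, 0.74 (SE 0.24, FDR = 0.048) in WT7 and 0.96 (SE 0.24, FDR = 0.036) in TG7. Its call was lost without MT0 replicate 1 in the mutant (FDR = 0.051), without any of 11 libraries in wild type (FDR up to 0.42) and without any of 6 in transgenic hearts (FDR up to 0.22).

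cd248a fell by 0.81 in MT7 vs MT0 (SE 0.14, FDR = 0.0063) and by 0.87 in TG7 vs TG0 (SE 0.13, FDR = 0.0042), with calls lost without MT7 replicate 1 (FDR = 0.055) and without TG7 replicate 2 (FDR = 0.054). LOC101883310 fell by 1.70 in MT7 vs MT0 (SE 0.22, FDR = 0.0024), to 5.01 and 6.87 CPM in MT7, against 16.1 and 15.6 CPM in MT0, and this call held without any 1 library. Its difference against wild type was -1.39 (SE 0.30, FDR = 0.047), lost without any of 10 libraries. The exceptions were si:ch211-28p3.4, higher by 1.197 in MT7 vs MT0 (SE 0.28, FDR = 0.022), and LOC100331359, higher by 0.89 in WT7 vs WT0 (SE 0.26, FDR = 0.029). The first call was lost without MT0 replicate 2 or MT7 replicate 1 (FDR up to 0.11) and the second without any of 6 libraries (FDR up to 0.14). si:ch211-28p3.4 measured 11.5 and 9.41 CPM in MT7 and 4.45 and 2.84 CPM in MT0, and its difference against transgenic hearts was 1.85 (SE 0.37, FDR = 0.041), lost without any of 9 libraries. These were the only lowered genes called in an interaction, LOC101883310 lower (beside 1.51%) and si:ch211-28p3.4 higher (beside 0.347%). Without MT7 replicate 2 these counts of 1 became 6 and 4.

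hrh3, smyd2a and atp1a3b were the other lowered genes called lower in MT7, and each call was lost in several leave-one-out fits. hrh3 rested on 7 and 13 counts in MT0 and 0 and 2 in MT7. Its log2 fold change of -3.42 ranged from -6.30 to -2.54 over these fits. That of smyd2a (-0.61) ranged from -0.85 to -0.35, and that of atp1a3b (-1.08) from -1.46 to -0.60. Called lower in WT7 were hhatla, hrh3 and csf3. In TG7 these were fgf7, LOC103909264, grin2b, kazald3, nhsl1a, LOC796753, nr2f6b and hhatla. fgf7 fell by 2.096 in TG7 (SE 0.39, FDR = 0.0100), to 3.05 and 3.46 CPM, against 13.5 and 10.7 CPM in TG0. hhatla fell by 0.91 in WT7 (SE 0.17, FDR = 0.0054). The fgf7 call was lost without either TG0 or TG7 library (FDR up to 0.14), and that of hhatla without WT7 replicate 1 (FDR = 0.052).

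The counts for lowered genes also changed when single libraries were left out. Leaving out a library also leaves fewer libraries to estimate the spread, and shares of all genes called in these fits were not computed. Dependence on a particular library thus cannot be told from a weaker fit. The 7 mutant calls became 3 without MT0 replicate 1 or MT7 replicate 1, 4 without either WT7 library, 14 without MT7 replicate 2, and 0 in a fit of only the 4 mutant libraries. With library totals in place of TMM they were 2 higher and 5 lower, and the 5 wild-type calls 2 higher and 3 lower. The wild-type calls became 0 without WT7 replicate 1, 1 without WT7 replicate 2 or WT0 replicate 1, and 3 without either TG7 library. The 10 transgenic calls became 1 without either TG7 library, 2 without either TG0 library, and 3 and 4 without WT7 replicate 1 and 2. Over all 3 genotypes, 22 of 38 raised and 34 of 51 lowered genes were called in no injury contrast, among them fsta, nog3, nbl1, wnt11r, tnni1d, ldb3b, lmod2a, LOC571601 and g6pcb. The share of all genes called in none of the 3 was not computed, so whether these counts differ from the general rate cannot be told. An FDR above the threshold does not show that the levels of these genes were equal.

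The wider lists are given beside the shares of all genes, which were 5.56% higher and 6.48% lower for MT7 vs MT0, 13.2% and 11% for WT7 vs WT0, and 6.69% and 2.68% for TG7 vs TG0. Of 66 tested genes of the BMP, TGF-beta and Wnt list, 4 were called higher (6.06%) and 3 lower (4.55%) in MT7 vs MT0, near the shares of all genes. The same list had 13 higher (19.7%) and 8 lower (12.1%) between WT7 and WT0, and 8 higher (12.1%) and 1 lower (1.52%) between TG7 and TG0. Of 76 tested sarcomere and Z-disc genes, 5 were higher (6.58%) and 34 lower (44.7%) in MT7 vs MT0, 6 (7.89%) and 23 (30.3%) between WT7 and WT0, and 5 (6.58%) and 9 (11.8%) between TG7 and TG0, while of the 4 sarcomere genes set apart in mutants only tpm2 was called in an injury contrast.

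Between the 2 control lines, members were called at about the share of all genes. In TG0 vs WT0, 9 of 38 raised (23.7%) and 10 of 51 lowered genes (19.6%) were called in either direction, beside 22.5% of all genes. Of these, 7 raised genes were called higher and 2 lower (beside 11.1% and 11.3% of all genes), and 5 lowered genes were called in each direction. In TG7 vs WT7 no raised gene was called by edgeR, and 1 lowered gene, si:ch211-26b3.4, was lower (beside 0.847% higher and 0.289% lower of all genes). Of the raised genes, 14 had an unadjusted p below 0.05 there, beside 2436 of all 19014 genes. DESeq2 called 6, and its share of all genes was not computed. fgf7 was higher in TG0 (log2 fold change 3.09, SE 0.42, FDR = 0.0017) and frem2b lower (-1.81, SE 0.27, FDR = 0.0025), and both calls held without any 1 library. tox was higher by 2.37 (SE 0.46, FDR = 0.0070), a call lost without WT0 replicate 1 (FDR = 0.065).

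Without TG0 replicate 1 or WT0 replicate 1 the raised calls in TG0 vs WT0 became 5 and 3, and the lowered calls 3 and 3, with 5 lowered calls without TG0 replicate 2. The 1 lowered call in TG7 vs WT7 was lost without any of 8 libraries. TG libraries lay between mutant and WT libraries without overlap for 4 raised genes (pou3f1, tox, rims1a and sntg2, 10.5%) and 13 lowered genes (25.5%), among them ldb3b, LOC571601, hrh3, ctnnd2b and LOC100536981. Of all genes past the filter, 4.78% had all TG libraries above all WT libraries and 7.09% had them below. Lines and transgene cannot be told apart in this comparison.

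Positions were taken from the annotation. In the RefSeq gene order of assembly GRCz12tu, a later build than the one used for the counts, 37 raised and 40 lowered genes could be placed, on 18 and 19 chromosomes with at most 4 of either set on 1. The chromosome of nkx2.5 held none of the raised genes and 1 lowered gene, zdhhc2, 116 genes away, beside 3.64% of all placed genes. With 40 of 51 placed (78.4%, below 80%), the check is void for the lowered set. The 1 pair of members within 5 genes of each other was tank and LOC100536981, which went in opposite directions.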

How the data were processed

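Total RNA of 12 pooled apex samples was sequenced single-end with an unstranded kit. Reads were aligned with STAR to GRCz10 and counted per gene with featureCounts, and the authors deposited raw counts, 1 file per library. CPM were computed from library totals, and 3 counts equal 0.12 to 0.21 CPM. Members and gene lists were chosen with earlier results of these data known. Fits used edgeR 4.0.16 in R 4.3.3 (quasi-likelihood test, TMM, filterByExpr with a minimum count of 10 and minimum total of 15, Benjamini-Hochberg adjustment) with 6 group means over 12 libraries; 19014 genes, all 89 members included, were tested. SE was taken as |log2 fold change| over the square root of the F statistic. Values were given, per direction, for the 8 symbol-bearing members with the largest gap and the 8 with the highest CPM, the 4 largest gaps of any name, members in the role lists, the 3 smallest p per injury contrast and direction, members called in an interaction, and 3 genes on each side of the margin; other members were described by role after their values were seen. On simulated counts for MT7 vs MT0, 41 of 49 genes lowered and 45 of 50 raised by 2 on the log2 scale were called, as were 8 of 47 lowered and 9 of 50 raised by 1. The simulation used 1 fixed dispersion for every gene and equal means in all groups for all other genes. The data differ in both, so these rates are not the power for these libraries. DESeq2 1.42.0, RLE scaling, no filter, a replicate block, smaller fits and leave-one-out were tried. Scaling by library totals, crossed numbers and leave-one-out of the genes chosen in 1 injury state were added after seeing the data. No sequences or coordinates were analysed here. Names came from RefSeq (GRCz12tu). Figures were drawn with matplotlib 3.10.9.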

Additional observations from a re-analysis of the deposited data

Results flagged for a closer look

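A test of the difference between injury responses (edgeR quasi-likelihood interaction) called 10 of the 89 genes against a control genotype, in 13 values. Against wild type, 21.1% of raised and 1.96% of lowered genes were called in either direction, beside 1.97% of all genes. Against transgenic hearts these shares were 7.89% and 1.96%, beside 1.41%. The rule chose the members on the same values, so the shares of all genes are not a like background. tank reaches 2 CPM in mutant libraries alone. Against wild-type hearts the differences on the log2 scale were -2.90 for si:ch73-196i15.5, -2.71 for postna, -2.32 for tbr1a, -2.03 for tank, -1.97 for LOC100333821, -1.86 for bmp4, -1.85 for rasl11b, -1.39 for LOC101883310 and -1.35 for tpm2. Against transgenic hearts they were -2.13 for LOC100333821, -1.97 for bmp4, -1.42 for tpm2 and 1.85 for si:ch211-28p3.4. Every one of the 13 was lost without at least 1 library.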

How the results depend on the processing

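No single-gene call changed sign under the alternatives run, but calls were lost. Fits of only the compared libraries lost 33, and library totals in place of TMM lost 13. Counts of calls were not checked for sign, so this does not cover them. Shares of all genes called under these alternatives were not computed, so the counts of calls below are of members only. DESeq2 called 3, 8, 5, 12, 16 and 4 lowered genes in (MT7-MT0)-(TG7-TG0), WT7 vs WT0, TG7 vs WT7, MT7 vs MT0, TG7 vs TG0 and (MT7-MT0)-(WT7-WT0), and 9, 6 and 8 raised genes in (MT7-MT0)-(TG7-TG0), TG7 vs WT7 and TG7 vs TG0. RLE scaling gave 0 and 8 lowered genes in (MT7-MT0)-(WT7-WT0) and WT7 vs WT0, and 5 raised genes in (MT7-MT0)-(WT7-WT0). Library totals gave 3 and 1 raised genes in (MT7-MT0)-(WT7-WT0) and TG7 vs WT7, and 2 lowered genes in TG7 vs WT7. No filter gave 2 lowered genes in (MT7-MT0)-(WT7-WT0) and 2 raised genes in TG7 vs WT7. Fits of only the compared libraries gave 10, 20, 0 and 0 lowered genes in TG7 vs WT7, TG7 vs TG0, MT7 vs MT0 and (MT7-MT0)-(TG7-TG0), and 5, 1, 1, 2, 8 and 3 raised genes in (MT7-MT0)-(TG7-TG0), (MT7-MT0)-(WT7-WT0), MT7 vs MT0, TG0 vs WT0, TG7 vs WT7 and WT7 vs WT0. With log2(CPM + 2) 23 genes were raised, a margin of 0.5 gave 154 raised and 118 lowered, and a margin of 2 gave 7 and 13.

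With the replicate number as a block, 52 of the genes raised in MT0 were called in injured libraries (79 without it), 3 raised and 0 lowered genes in (MT7-MT0)-(WT7-WT0), and 0 lowered genes in (MT7-MT0)-(TG7-TG0). Deviations of same-numbered libraries correlated between -0.12 and 0.12, so the numbers were not taken to pair samples. Crossing the MT7 numbers lost 0 of 12 named calls.

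Leaving out 1 library gave 26 to 46 raised and 50 to 64 lowered genes by the rule. Called raised genes ranged from 2 to 7 in MT7 vs MT0, 3 to 10 in WT7 vs WT0, 0 to 8 in TG7 vs TG0, 0 to 9 and 0 to 7 in the interactions with wild type and transgenic, 3 to 10 in TG0 vs WT0 and 0 to 1 in TG7 vs WT7. Called lowered genes ranged from 3 to 14, 0 to 6, 1 to 14, 0 to 6, 0 to 4, 3 to 12 and 0 to 1 in the same order. Genes chosen in uninjured libraries and called in injured ones ranged from 1 to 98 raised and 8 to 103 lowered, and in the reverse direction from 18 to 73 raised and 37 to 85 lowered. Of 61 calls of single genes, 8 held without any 1 library. Where an arm was left with 1 library, it was assumed to vary like the other groups. The cause of these changes was not tested.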
